A study of Mus musculus with 40 samples.

Results

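The 33 genes described here encode the junctions of epithelial cells: desmosomes, the epithelial cadherins of adherens junctions, tight junctions, and hemidesmosomes with their laminin ligand. They were named as a list by gene symbol, and all 33 were matched by numeric gene identifier among the 23079 identifiers of the deposited count table. The 40 libraries came from pregnant C57BL/6 mice, an inbred laboratory strain, at 18.5 days post coitum. In the order used here the 4 groups of 10 libraries are cervix of mice injected intraperitoneally with human chorionic gonadotropin (hCG), cervix of mice injected with phosphate-buffered saline (PBS), myometrium of hCG mice and myometrium of PBS mice. hCG, made by the human placenta, binds the receptor of luteinizing hormone, and the study asked how it changes expression in these 2 tissues late in gestation. Neither the hCG dose nor its timing is stated in the labels. The labels do not say which libraries came from 1 animal, so the p-values measure the spread between libraries. In bulk tissue, fewer epithelial cells and less RNA per epithelial cell cannot be told apart.

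A desmosome joins neighbouring cells through desmogleins and desmocollins, transmembrane cadherins whose tails bind plakoglobin (Jup) and plakophilins, which bind desmoplakin (Dsp) and through it the keratin filaments. Hemidesmosomes join keratin filaments to laminin in the basement membrane through the integrin of Itga6 and Itgb4, type XVII collagen (Col17a1) and the linkers plectin (Plec) and dystonin (Dst). Tight junctions seal the space between cells with claudins and occludin (Ocln) held on the scaffold of Tjp1 and Tjp3. The lower cervix is lined by stratified squamous epithelium, which is rich in desmosomes, while the endocervix and the endometrial lining beside the myometrium are simple epithelia.

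RefSeq promoter windows of build GRCm38.p6, 250 bases before to 50 after a start site, were on hand for 13 of the 33 genes. The 4 below are shown because they pair both sides of the hCG comparison in cervix: the desmosomal genes Jup and Dsp, whose counts were lower with hCG, and the neighbouring claudin genes Cldn3 and Cldn4, which did not pass the test. Capitals mark the E-box CACCTG or CAGGTG, the letters bound by Snail and Zeb repressors of epithelial genes, and the GC box GGGCGG or CCGCCC, the letters bound by Sp1. Each window is written 5′ to 3′ on the strand of its gene.
Jup, chr11:100397741-100398040, minus strand: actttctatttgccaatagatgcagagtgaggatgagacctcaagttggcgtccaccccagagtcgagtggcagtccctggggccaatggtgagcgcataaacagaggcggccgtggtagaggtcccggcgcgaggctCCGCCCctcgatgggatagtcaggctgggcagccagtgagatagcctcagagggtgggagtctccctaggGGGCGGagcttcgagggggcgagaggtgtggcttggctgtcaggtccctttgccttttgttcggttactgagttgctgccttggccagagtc
Dsp, chr13:38151044-38151343, plus strand: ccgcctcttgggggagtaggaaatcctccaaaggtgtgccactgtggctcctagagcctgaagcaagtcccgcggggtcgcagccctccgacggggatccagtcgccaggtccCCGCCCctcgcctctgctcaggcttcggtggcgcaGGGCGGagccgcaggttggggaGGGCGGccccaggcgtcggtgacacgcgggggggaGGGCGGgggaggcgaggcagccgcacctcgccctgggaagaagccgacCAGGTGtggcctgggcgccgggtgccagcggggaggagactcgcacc
Cldn3, chr5:134985964-134986263, plus strand: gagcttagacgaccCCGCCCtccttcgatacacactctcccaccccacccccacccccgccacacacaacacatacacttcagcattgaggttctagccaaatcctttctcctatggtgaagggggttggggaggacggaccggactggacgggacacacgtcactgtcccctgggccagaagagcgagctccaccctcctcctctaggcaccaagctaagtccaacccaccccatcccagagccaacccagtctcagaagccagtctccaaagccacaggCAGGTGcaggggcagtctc
Cldn4, chr5:134946885-134947184, minus strand: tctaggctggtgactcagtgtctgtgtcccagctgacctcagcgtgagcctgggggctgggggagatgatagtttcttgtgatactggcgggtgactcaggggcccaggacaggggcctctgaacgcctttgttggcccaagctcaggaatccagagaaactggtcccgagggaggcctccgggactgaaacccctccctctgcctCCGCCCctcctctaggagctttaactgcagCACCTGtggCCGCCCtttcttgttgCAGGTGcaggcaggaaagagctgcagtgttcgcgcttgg
The Jup window holds 2 GC boxes and no E-box, the Dsp window 4 GC boxes and 1 E-box, the Cldn3 window 1 of each, and the Cldn4 window 2 of each. Of 19 windows of the 13 genes, some of which overlap, 13 held an E-box on either strand (68.4%), against 20.2% of all 32851 windows. A GC box stood in 12 of the 19 (63.2%), against 35.7% of all windows. The AP-1 letters TGANTCA were found in 1 of the 19, that of Cldn4 (5.26%), against 7.81% of all windows, and the Grainyhead letters AACCNGTT, read on both strands, in 0 of 19, against 2.09% of all. These are matches of letters only.

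Total counts ran from 5449239 to 25028360 per library. By depth the cervix libraries form a set of 10, each from 16613261 counts upwards (6 hCG, 4 PBS), and a set of 10 with 11602678 or fewer (4 hCG, 6 PBS), called deeper and shallower here. Several cervix libraries stood apart. hCG cervix library 5 had the highest summed urothelium markers, 2279 CPM (counts scaled to library size), followed by 642 CPM in hCG cervix library 3, while no PBS cervix library exceeded 108 CPM. hCG cervix library 1 held 5386 CPM of skeletal muscle markers, against at most 237 CPM in PBS cervix, and hCG cervix library 3 held 2894 CPM of adipocyte markers, against at most 285 CPM. In PBS cervix libraries 5 to 8 the mitochondrial leucyl-tRNA synthetase Lars2 took 3.51% to 17.5% of all counts, against at most 0.122% in every other cervix library. Results that rest on these cervix libraries are given with and without them. In myometrium Lars2 took 5.22% of counts in hCG library 3, and 5.63% and 4.61% in PBS libraries 2 and 8. It took at most 0.713% in the other myometrium libraries. These myometrium libraries were not left out as a set.

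Squamous and smooth muscle markers matched the labelled tissues. The basal keratin Krt5 had a median of 1275 CPM in hCG cervix and 3783 CPM in PBS cervix, against 0.197 CPM in hCG myometrium and 0.317 CPM in PBS myometrium. In both comparisons of tissues all tested squamous markers were higher in cervix, 12 of 12 in hCG mice and 14 of 14 in PBS mice, and smooth muscle markers were lower in cervix for 6 of 8 in hCG mice and 8 of 8 in PBS mice. Myometrium libraries also held markers of yolk sac, a membrane of the fetus, at 171 to 29928 CPM in hCG myometrium and 32.5 to 18808 CPM in PBS myometrium, against at most 94.6 CPM in cervix. Of these, 6 libraries held over 10000 CPM: 3, 5 and 10 of hCG mice and 4, 8 and R3 of PBS mice. The levels of some junction genes moved with these markers, whose part in the results was tested only by leaving these libraries out or adding the markers as a score. Cdh1 had 143 to 282 CPM in the 3 hCG libraries, against 57.7 to 168 CPM in the 7 other hCG libraries, and 268 to 381 CPM in the 3 PBS libraries, against 114 to 178 CPM in the 7 other PBS libraries. Ocln had 40.1 to 94.6 CPM in the 3 hCG libraries, against 23.4 to 59.1 CPM in the 7 others, and 73.5 to 79.1 CPM in the 3 PBS libraries, against 20.1 to 41.2 CPM in the 7 others. For both genes the sets separate in PBS mice and overlap in hCG mice. The cut at 10000 CPM falls in a wide gap only in PBS mice, between 754 and 11543 CPM of these markers. In hCG mice it falls between 8519 and 10041 CPM. Fits without the 6 libraries therefore keep hCG libraries with up to 8519 CPM of yolk sac markers.

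**Figure D1:**
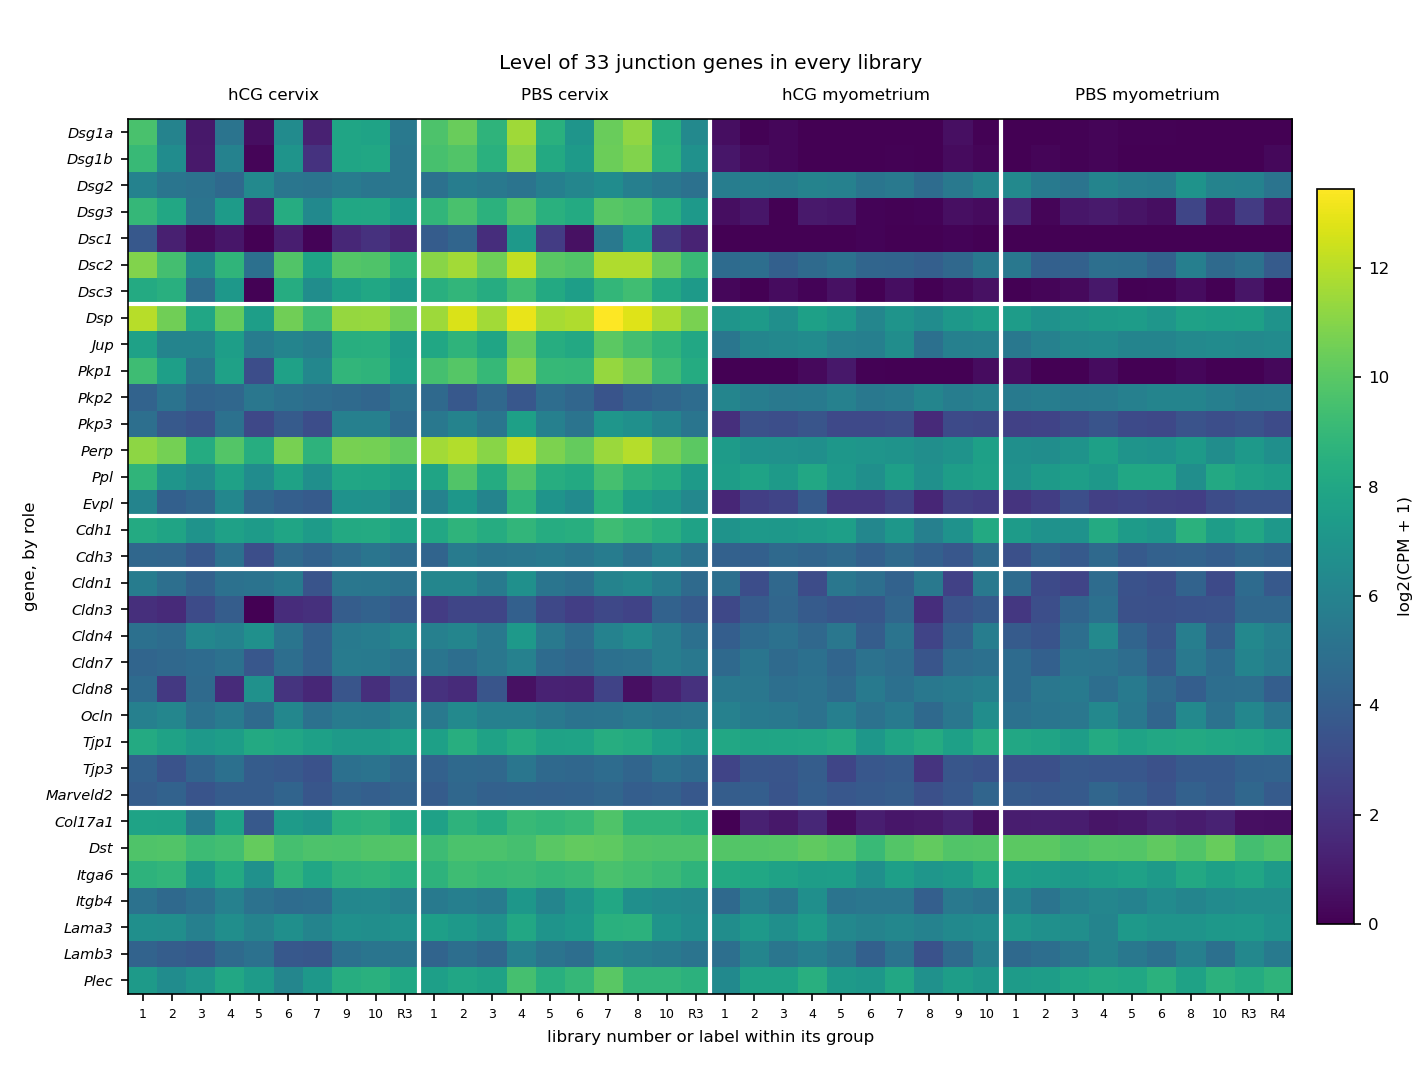
Level of the 33 genes, one row per gene and grouped by role, in the 40 libraries, one column each, as log2(CPM + 1). Dsg1a, Dsg1b, Dsc1, Dsc3, Pkp1 and Col17a1 are near 0 throughout the myometrium, while Dst and Tjp1 are similar in all 4 groups and hCG cervix library 5 is near 0 for Dsg1a, Dsg1b, Dsc1 and Dsc3.

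Across the tissues the junction genes fell into those of squamous epithelium, present almost only in cervix, and those present in both tissues. In PBS mice 20 of the 32 tested members were higher in cervix than in myometrium, 2 were lower and 10 did not pass edgeR's quasi-likelihood test at a Benjamini-Hochberg adjusted p under 0.05. Of all 14545 genes tested, 54% passed in either direction, 28% higher and 26.1% lower. The median log2 difference, cervix over myometrium, was 1.11 for the 32 members and 0.04 for all genes. In hCG mice 14 of the 30 tested members were higher in cervix and 1 was lower, where 43.7% of 14974 genes passed, 24.3% higher and 19.4% lower. The medians in hCG mice were 0.30 for the members and 0.07 for all genes. Dsg1a, Dsc1 and Dsc3 had enough counts in too few libraries to be tested there, so the sets of genes tested differ between treatments. In hCG cervix library 5 they had 0.408, 0 and 0.041 CPM. Without a filter on low counts all 33 were tested, with 17 higher and 1 lower in hCG mice and a median of 0.61. In PBS mice 20 were then higher and 2 lower, with a median of 1.20. Over all genes those fits called 7577 of 20631 in hCG mice and 9106 of 20343 in PBS mice. The 14 were Dsg1b, Dsg3, Dsc2, Dsp, Jup, Pkp1, Pkp3, Perp, Evpl, Cdh1, Cldn4, Tjp3, Col17a1 and Itga6. Without hCG cervix libraries 1, 3 and 5, edgeR called 19 members in hCG mice (15 higher, 4 lower) and 7034 of 14989 genes. Without PBS cervix libraries 5 to 8 it called 23 members in PBS mice (19 higher, 4 lower) and 8316 of 15203 genes. Without the 6 myometrium libraries high in yolk sac markers it called 18 members in hCG mice (17 higher, 1 lower). In PBS mice it then called 23 (21 higher, 2 lower). Over all genes the calls without those 6 libraries were 5518 of 15375 in hCG mice and 7639 of 15102 in PBS mice.

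The squamous desmogleins were almost absent from myometrium. All 7 desmosomal cadherin genes lie side by side on chromosome 18, between positions 19960930 and 20604526 of GRCm38.p6. Dsg1a, a desmoglein of the upper squamous layers, had a lowest, median and highest level of 80.7, 630 and 2932 CPM in PBS cervix, against 0, 0 and 0.117 CPM in PBS myometrium. Its near-identical neighbour Dsg1b had 110, 564 and 2035 CPM in PBS cervix, against 0, 0 and 0.214 CPM in PBS myometrium. The tissues did not overlap for either gene, and the whole PBS myometrium group held only 4 Dsg1a and 7 Dsg1b counts. Because reads of such similar copies can be divided arbitrarily, the split between Dsg1a and Dsg1b is uncertain. Dsg3, the desmoglein of the lower squamous layers, had 153, 431 and 995 CPM in PBS cervix, against 0.143, 0.838 and 6.10 CPM in PBS myometrium. Its log2 difference was 8.58 (SE 0.586, edgeR adjusted p = 6.57e-11). Dsg2, the desmoglein of simple epithelia and heart muscle, did not pass, at 46.9 CPM in PBS cervix and 56.8 CPM in PBS myometrium (medians), a log2 difference of -0.26 (SE 0.229).

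Per length of transcript, Dsg2 made up a median of 1.88% of the RNA of these 4 desmogleins in PBS cervix, against 97.7% in PBS myometrium. In hCG cervix the median share of Dsg2 was 5.75%, but its highest value was 97.4%, in library 5. Desmocollins followed another pattern, since Dsc2 held the larger part in both tissues, with a median of 82.7% of desmocollin RNA per length in PBS cervix and 99.4% in PBS myometrium. Dsc3, the desmocollin of lower squamous layers, had 160, 336 and 648 CPM in PBS cervix, against 0, 0.107 and 0.822 CPM in PBS myometrium. Dsc1, which marks cornifying layers, had enough counts in too few libraries of PBS mice to be tested. Its 0 counts of 127936101 in PBS myometrium allow at most 0.0234 CPM over the group (3 counts, counting error only). The PBS cervix mean of 38.5 CPM lay 1643-fold above that limit. That ratio holds for the mean only, since PBS cervix libraries ran from 0.508 to 149 CPM with a median of 9.07 CPM.

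The plaque genes divided in the same comparison. Pkp1, the plakophilin of stratified epithelia, had 313, 676 and 2549 CPM in PBS cervix, against 0, 0 and 0.406 CPM in PBS myometrium, while Pkp2, the plakophilin of simple epithelia and heart, was lower in cervix. Pkp2 stood at 10.2, 20.6 and 27.3 CPM in PBS cervix, against 43.8, 49.8 and 65.7 CPM in PBS myometrium, with no overlap and a log2 difference of -1.47 (SE 0.167, edgeR adjusted p = 1.57e-07). Pkp2 was also the 1 member lower in cervix of hCG mice, at -1.0 (SE 0.144, edgeR adjusted p = 1.1e-05). Per length and among Pkp1, Pkp2 and Pkp3 only, Pkp1 made up a median of 88.0% of RNA in PBS cervix and Pkp2 81.5% in PBS myometrium. Pkp4 was not counted in these shares. Dsp, which ties desmosomes to keratin, was 31.9-fold higher in cervix of PBS mice (log2 5.0, SE 0.322), and Perp, a tetraspan desmosomal protein, 20.6-fold (log2 4.36, SE 0.27). Both remained well measured in PBS myometrium, with medians of 164 CPM for Dsp and 116 CPM for Perp. Ppl, periplakin, differed less, at 2.38-fold (log2 1.25, SE 0.288, edgeR adjusted p = 0.000871). The classical cadherins of adherens junctions were both higher in cervix of PBS mice, Cdh1 by 1.94-fold (log2 0.96, SE 0.229) and Cdh3 by 2.34-fold (log2 1.23, SE 0.179), with overlapping groups. On a per-length scale the highest mean levels in PBS cervix were 1346 CPM per kb for Perp, 529 for Dsp and 429 for Dsc2.

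Among tight junction genes, 6 of 9 did not pass in PBS mice. Tjp1, the scaffold ZO-1, had 145, 216 and 341 CPM in PBS cervix, against 178, 245 and 296 CPM in PBS myometrium, a log2 difference of 0.00 (SE 0.145). Ocln had 33.9, 42.2 and 80.7 CPM in PBS cervix, against 20.1, 38.7 and 79.1 CPM in PBS myometrium. Cldn7 had 20.4, 34.6 and 58.7 CPM in PBS cervix, against 13.6, 30.7 and 66.2 CPM in PBS myometrium. The tricellular junction gene Marveld2 had 11.9, 17.3 and 21.7 CPM in PBS cervix, against 10.1, 13.6 and 21.8 CPM in PBS myometrium. The groups overlapped widely for these 4 genes. Cldn1, a claudin of epidermis, and Tjp3, whose gene overlaps Apba3 on the other strand, were higher in cervix, by 3.96-fold (log2 1.99, SE 0.315) and 1.99-fold (log2 0.99, SE 0.161). Cldn8 was 10-fold lower in cervix of PBS mice (log2 -3.33, SE 0.431, edgeR adjusted p = 1.13e-06), with no overlap between the groups. Among Cldn1, Cldn3, Cldn4, Cldn7 and Cldn8 only, it made up a median of 1.48% of RNA per length in PBS cervix, against 27.6% in PBS myometrium. Other claudins were not counted in these shares.

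Of the hemidesmosome genes, Col17a1 was nearly absent from myometrium, with 205, 448 and 868 CPM in PBS cervix, against 0.429, 1.07 and 1.41 CPM in PBS myometrium (log2 8.87, SE 0.306). Itga6 was 2.91-fold higher in cervix (log2 1.54, SE 0.135), also without overlap. Dst had 589, 825 and 1195 CPM in PBS cervix, against 700, 942 and 1268 CPM in PBS myometrium, and did not pass (log2 -0.17, SE 0.138). Lamb3, the beta chain of the hemidesmosomal laminin, had 19.2, 34.9 and 64.5 CPM in PBS cervix, against 23.1, 39.3 and 76.9 CPM in PBS myometrium. Its gene overlaps Hsd11b1 on the other strand, which had a median of 15.4 CPM in PBS cervix and 485 CPM in PBS myometrium. The strand setting of the counting is not stated, so Lamb3 reads in myometrium cannot be told apart from Hsd11b1 reads. Lama3 and Plec were higher in cervix by 1.62-fold and 1.61-fold, with edgeR adjusted p-values of 0.0215 and 0.0396, but without the myometrium libraries high in yolk sac markers the adjusted p-values were 0.0628 and 0.114. Plec lost its call in 10 of 20 fits that left out 1 library.

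**Figure D2:**
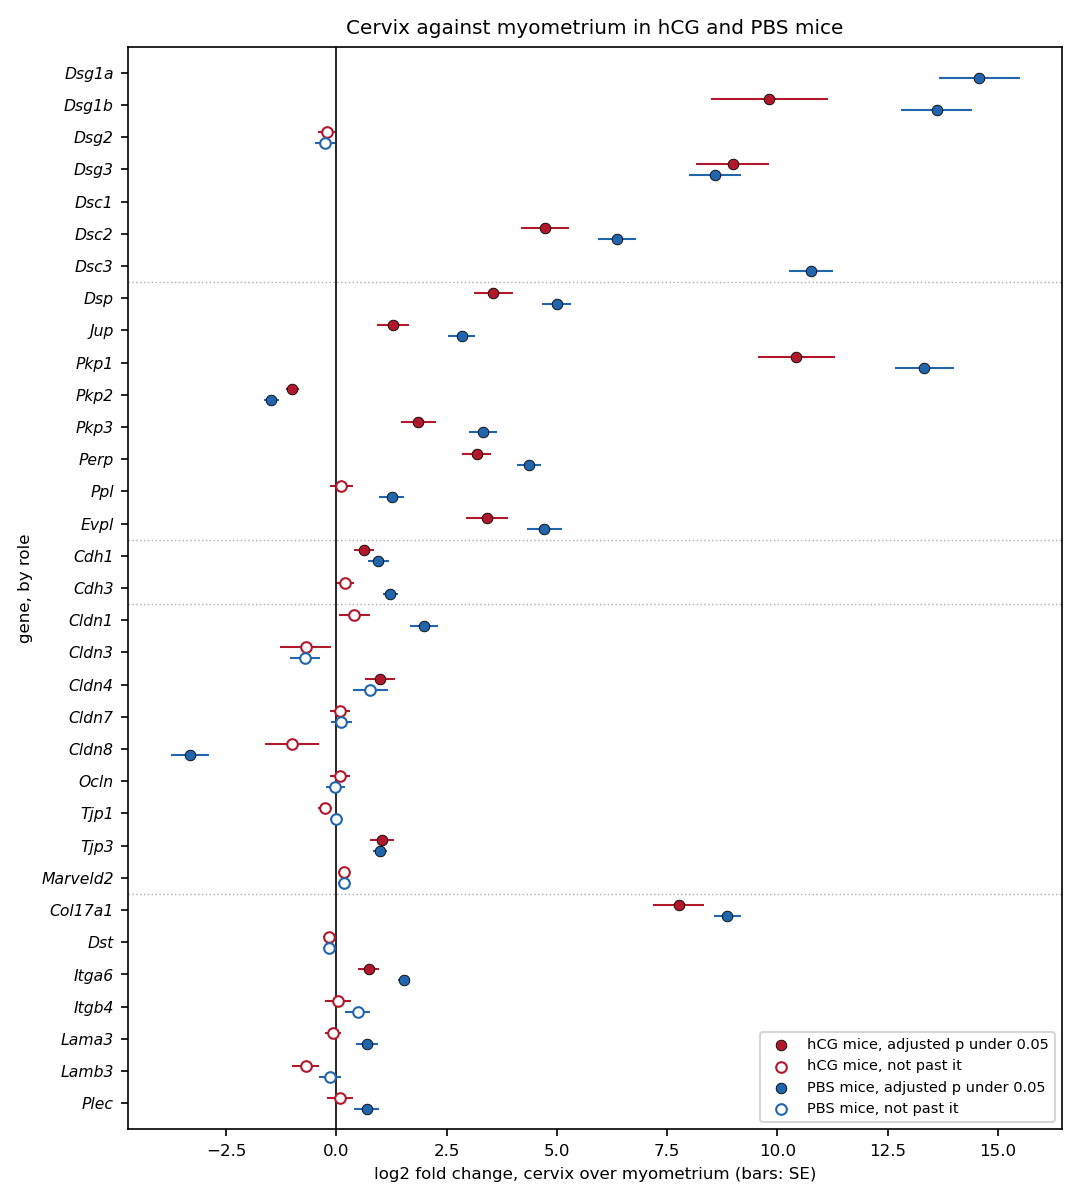
Log2 fold change of cervix over myometrium (horizontal axis) with its SE for each gene (vertical axis), in hCG mice (red) and PBS mice (blue). Filled points have an adjusted p under 0.05. A missing point means that too few libraries held enough counts for a test. Dsg1a, Dsg1b, Dsg3, Dsc3, Pkp1 and Col17a1 lie far to the right where tested, Dsg2 lies near 0, Pkp2 lies left in both treatments, and most tight junction genes lie near 0.

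In the test of all 20 cervix libraries, the genes that were lower with hCG encode desmosomal, classical cadherin and hemidesmosomal proteins and a laminin chain: Dsc1, Dsc2, Dsp, Jup, Pkp1, Pkp3, Ppl, Evpl, Cdh1, Cdh3, Itga6, Itgb4, Plec and Lama3. Of the tight junction genes edgeR called none lower, while DESeq2 called Cldn1 lower (adjusted p = 0.0243). Of the 33 members, all tested, 14 fell, 1 rose and 18 did not pass, while 8.91% of 14932 genes passed in either direction, 4.74% higher and 4.17% lower. Over all genes that split was 708 higher and 623 lower, but 972 and 475 with upper-quartile scaling, under which the members' counts did not change. The log2 fold change, hCG over PBS, was negative for 30 of 33 members with a median of -1.01, against 0.01 for all genes. Adjusted p-values of the 15 ran only from 0.0275 to 0.0463, and for none of the 33 genes did the hCG and PBS libraries separate fully.

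Squamous epithelium markers moved with this difference. Their summed level ran from 1725 to 19933 CPM with a median of 7044 in hCG cervix, against 10943 to 95329 CPM with a median of 26940 in PBS cervix. Of the 14 markers 4 fell (Krt5, Krt16 and the near-identical copies Krt6a and Krt6b) and 10 did not pass. When the mean log2 level of these markers was added to the model, 0 of 33 members passed, 1 had an unadjusted p under 0.05, 19 were negative and their median was -0.13. Over all genes 0 of 14932 passed in that fit and 802 had an unadjusted p under 0.05. Simple epithelium markers ran from 657 to 1862 CPM in hCG cervix and from 951 to 2280 CPM in PBS cervix, with 0 of 8 past the test. With their score in the model 0 members passed, 16 had an unadjusted p under 0.05 and the median was -0.79. Over all genes 0 of 14932 passed in that fit as well, and 2343 had an unadjusted p under 0.05. Leukocyte markers rose for 4 of 6. Urothelium markers rose for 5 of 6, but their median sums were 56.3 CPM in hCG cervix and 57.1 CPM in PBS cervix, and hCG libraries 3, 5 and R3 alone exceeded the PBS maximum. Without hCG cervix libraries 1, 3 and 5, 0 markers of squamous epithelium, leukocytes or urothelium passed edgeR's test, with 12, 4 and 0 at an unadjusted p under 0.05. The part of leukocytes and urothelium in the junction results was not tested.

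**Figure D3:**
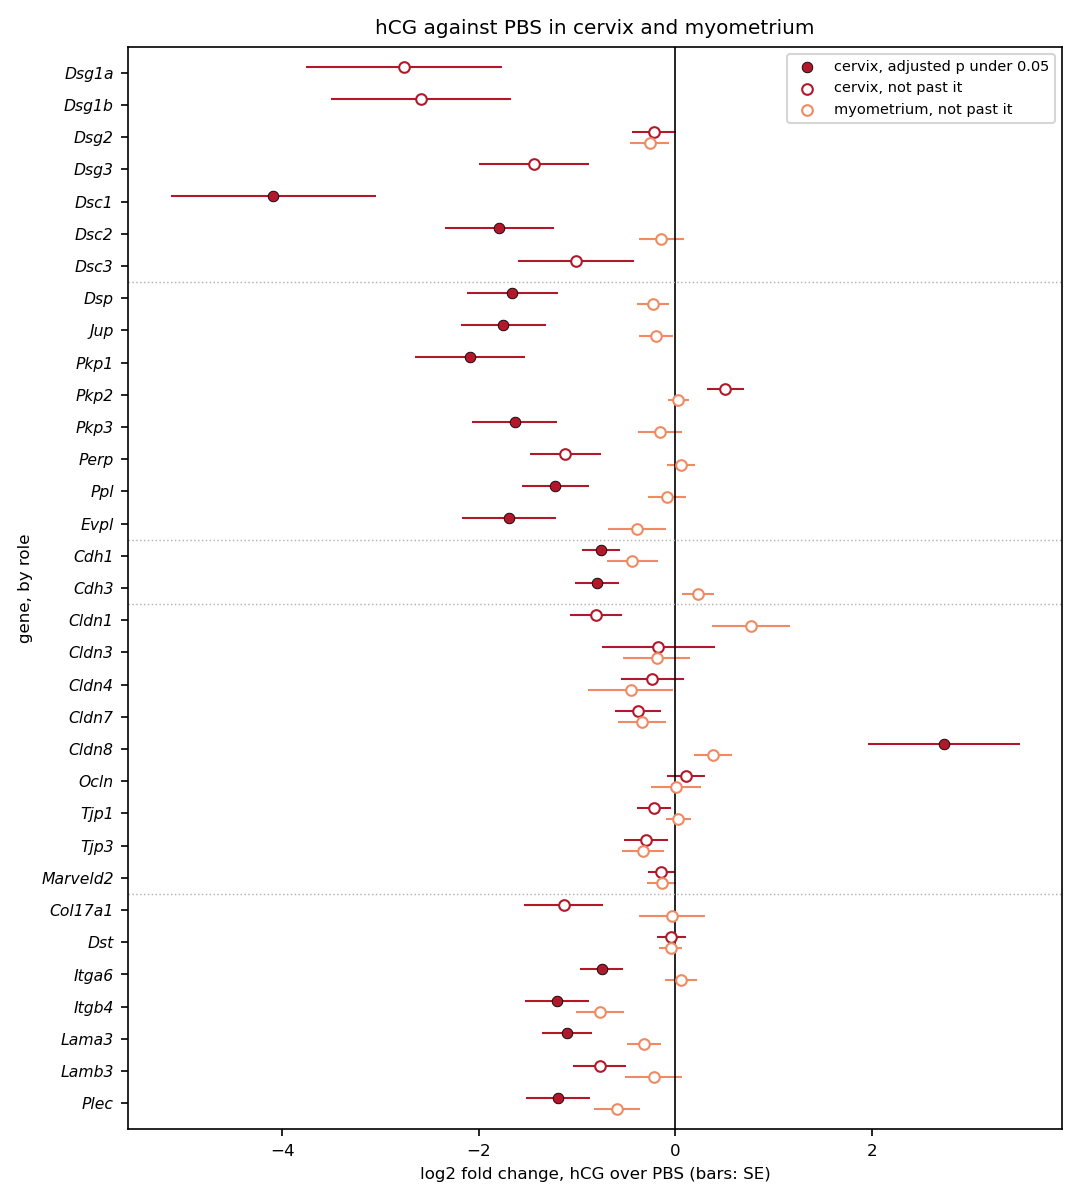
Log2 fold change of hCG over PBS (horizontal axis) with its SE for each gene (vertical axis), in cervix (red) and myometrium (orange); filled points have an adjusted p under 0.05 and genes without an orange point had too few counts in myometrium. In cervix the desmosomal and hemidesmosomal genes lie left of 0 except Pkp2 at 0.51, and Cldn8 lies at 2.73, while the myometrium values lie between -0.77 and 0.77.

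Among the desmosomal cadherins 2 of 7 fell. Dsc1 had 0, 1.23 and 12.2 CPM in hCG cervix, against 0.508, 9.07 and 149 CPM in PBS cervix, and 9 of 10 hCG libraries lay below the PBS median. Its log2 fold change was -4.09 (SE 1.04, edgeR adjusted p = 0.0303). Dsc2 had 30.4, 566 and 1947 CPM in hCG cervix, against 560, 1771 and 4837 CPM in PBS cervix (log2 -1.79, SE 0.55, edgeR adjusted p = 0.0463). The 5 other cadherins had log2 values of -2.76 for Dsg1a (SE 0.994), -2.59 for Dsg1b (SE 0.914), -1.44 for Dsg3 (SE 0.561), -1.01 for Dsc3 (SE 0.594) and -0.22 for Dsg2 (SE 0.225), and did not pass. The spread of this class was wide: the coefficient of variation over the 10 libraries had a median of 86.9% in hCG cervix and 65.3% in PBS cervix over the 7 genes. Over the 9 tight junction genes it was 41.8% in hCG cervix and 32.9% in PBS cervix. In hCG cervix library 5, Dsg1a stood at 0.408 CPM and Dsc3 at 0.041 CPM, and that library was the lowest of its group for 16 of the 33 members, followed by library 3 for 7 and library 7 for 6. Library 5 also held the lowest squamous marker sum of all cervix libraries, 1725 CPM, and the highest smooth muscle marker sum, 25220 CPM, against at most 13154.5 CPM in the other hCG cervix libraries and 11884 CPM in PBS cervix.

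Of the plaque and linker genes 6 of 8 fell. Jup, which binds the tails of both desmosomal and classical cadherins, had 48.9, 117 and 355 CPM in hCG cervix, against 242, 380 and 1227 CPM in PBS cervix. All 10 hCG libraries lay below the PBS median, and the log2 fold change was -1.75 (SE 0.434, edgeR adjusted p = 0.0298). Pkp3 had 6.49, 19.5 and 57.1 CPM in hCG cervix, against 34.5, 59.8 and 198 CPM in PBS cervix (log2 -1.64, SE 0.434, edgeR adjusted p = 0.0327). Pkp1 had 7.96, 201 and 609 CPM in hCG cervix, against 313, 676 and 2549 CPM in PBS cervix (log2 -2.09, SE 0.562). The keratin linker Dsp followed, with 186, 1485 and 4085 CPM in hCG cervix, against 1696, 3559 and 11199.6 CPM in PBS cervix (log2 -1.66, SE 0.468). The cornified envelope linkers Evpl (envoplakin) and Ppl fell by 1.70 (SE 0.476) and 1.22 (SE 0.34) on the log2 scale. Evpl had 13.5, 44.0 and 116 CPM in hCG cervix, against 62.4, 130 and 432 CPM in PBS cervix. Ppl had 84.3, 190 and 438 CPM in hCG cervix, against 159, 326 and 895 CPM in PBS cervix. Perp, at -1.12 (SE 0.364, edgeR adjusted p = 0.0545), and Pkp2, at 0.51 (SE 0.191, edgeR adjusted p = 0.0844), did not pass.

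Both classical cadherins fell by less than 1 log2 unit. Cdh1, E-cadherin, had 119, 227 and 300.5 CPM in hCG cervix, against 217, 349 and 620 CPM in PBS cervix (log2 -0.76, SE 0.191, edgeR adjusted p = 0.0298). Cdh3, the P-cadherin of basal cells, had 8.45, 22.5 and 36.1 CPM in hCG cervix, against 19.2, 38.2 and 55.0 CPM in PBS cervix (log2 -0.79, SE 0.222, edgeR adjusted p = 0.0356). For both genes all 10 hCG libraries lay below the PBS median.

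Of the 9 tight junction genes edgeR called none lower and Cldn8 higher. Cldn8, a claudin known from tight distal epithelia such as the collecting duct, had 1.80, 5.47 and 110 CPM in hCG cervix, against 0.484, 1.81 and 10.5 CPM in PBS cervix (log2 2.73, SE 0.771, edgeR adjusted p = 0.0362). The 110 CPM came from library 5, the one with the highest urothelium markers, and the next highest hCG library had 25.0 CPM. Without hCG cervix libraries 1, 3 and 5 the log2 fold change of Cldn8 was 0.60 (edgeR adjusted p = 0.576). Cldn1 had 10.2, 33.4 and 49.6 CPM in hCG cervix, against 23.8, 57.3 and 105 CPM in PBS cervix, and missed the threshold with edgeR (log2 -0.81, SE 0.267, edgeR adjusted p = 0.0566) but passed with DESeq2 (adjusted p = 0.0243). The 7 others, Cldn3, Cldn4, Cldn7, Ocln, Tjp1, Tjp3 and Marveld2, had log2 values between -0.38 and 0.11 with SE from 0.133 (Marveld2) to 0.574 (Cldn3). Tjp1, for example, had 149, 197 and 303 CPM in hCG cervix, against 145, 216 and 341 CPM in PBS cervix.

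Of the hemidesmosome and laminin genes 4 of 7 fell. Lama3, the alpha chain of their laminin ligand, had the smallest p of all members, with 57.6, 101 and 111 CPM in hCG cervix, against 92.0, 149 and 403 CPM in PBS cervix (log2 -1.10, SE 0.253, edgeR adjusted p = 0.0275). Itgb4 had 23.0, 32.6 and 77.2 CPM in hCG cervix, against 44.8, 84.9 and 264 CPM in PBS cervix (log2 -1.21, SE 0.323). Its partner Itga6 had 110, 387 and 462 CPM in hCG cervix, against 416, 564 and 768 CPM in PBS cervix (log2 -0.75, SE 0.22). Plec had 72.4, 162 and 372 CPM in hCG cervix, against 190, 429 and 1029 CPM in PBS cervix (log2 -1.19, SE 0.33). For these 4 genes all 10 hCG libraries lay below the PBS median. Col17a1, at -1.13 (SE 0.401, edgeR adjusted p = 0.0715), Lamb3, at -0.77 (SE 0.274), and Dst, at -0.04 (SE 0.147), did not pass.

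**Figure D4:**
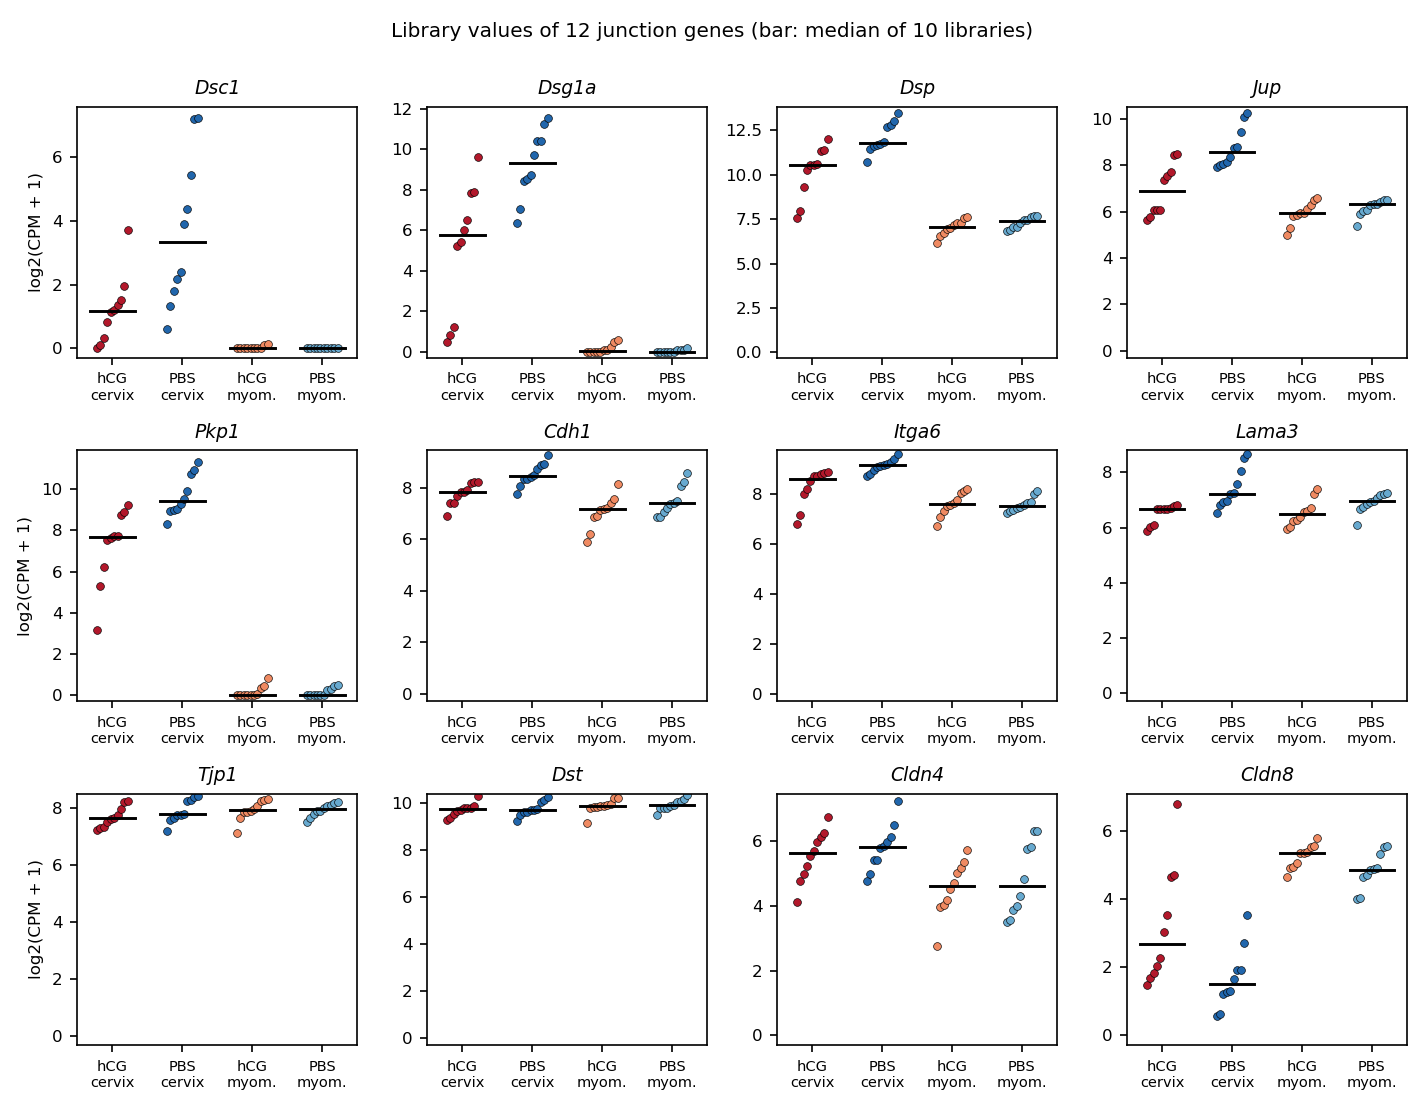
Level of 12 junction genes as log2(CPM + 1) in each library (points) of the 4 groups on the horizontal axis, with a bar at the median of the 10 libraries. The hCG and PBS cervix points overlap for every gene, Dsc1, Dsg1a and Pkp1 lie near 0 in myometrium, and 1 hCG cervix library stands above the rest for Cldn8.

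The calls in cervix depended on single libraries, while most directions held. Within the 10 deeper cervix libraries edgeR called 0 of 33 members (18 at an unadjusted p under 0.05), with a median log2 fold change of -1.05 and 29 of 33 negative. Within the 10 shallower ones it called 0 (14 at an unadjusted p under 0.05), with a median of -0.78 and 28 negative. Without hCG cervix libraries 1, 3 and 5 it called 0 (23 at an unadjusted p under 0.05), with a median of -0.83, and without PBS cervix libraries 5 to 8 it called 0 (21), with a median of -0.77. Over all genes the calls were 242 in the deeper libraries, 0 in the shallower, 0 without the hCG libraries and 1 without the PBS libraries. In the same order, 4467 of 15767, 776 of 14394, 2833 of 14755 and 4266 of 15636 genes had an unadjusted p under 0.05. When 1 library was left out, 0 members passed without hCG cervix library 3 or without PBS cervix library 4, 7 or 8, and the other fits without 1 library gave 3 to 19. Of those, the fits without hCG cervix library 2, 5 or 7 gave 9, 3 and 5 members. Those without PBS cervix library 2 or 10 gave 9 and 4. Calls over all genes also moved widely, from 1 to 2065 across the 20 fits without 1 library. With DESeq2 21 members passed, where 15.3% of all genes did.

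The class medians kept their sign in these subsets. For the desmosomal cadherins the median was -2.05 in deeper libraries, -1.65 in shallower ones, -1.83 without hCG libraries 1, 3 and 5, and -1.74 without PBS libraries 5 to 8. In the same order the values were -2.04, -1.07, -1.45 and -1.46 for plaque and linker genes. For hemidesmosome and laminin genes they were -1.0, -0.80, -0.83 and -0.74, and for tight junction genes -0.46, -0.03, -0.18 and -0.34. With the squamous score in the model the median became 0.25 for the desmosomal cadherins, -0.21 for plaque and linker genes and -0.45 for hemidesmosome and laminin genes.

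**Figure D5:**
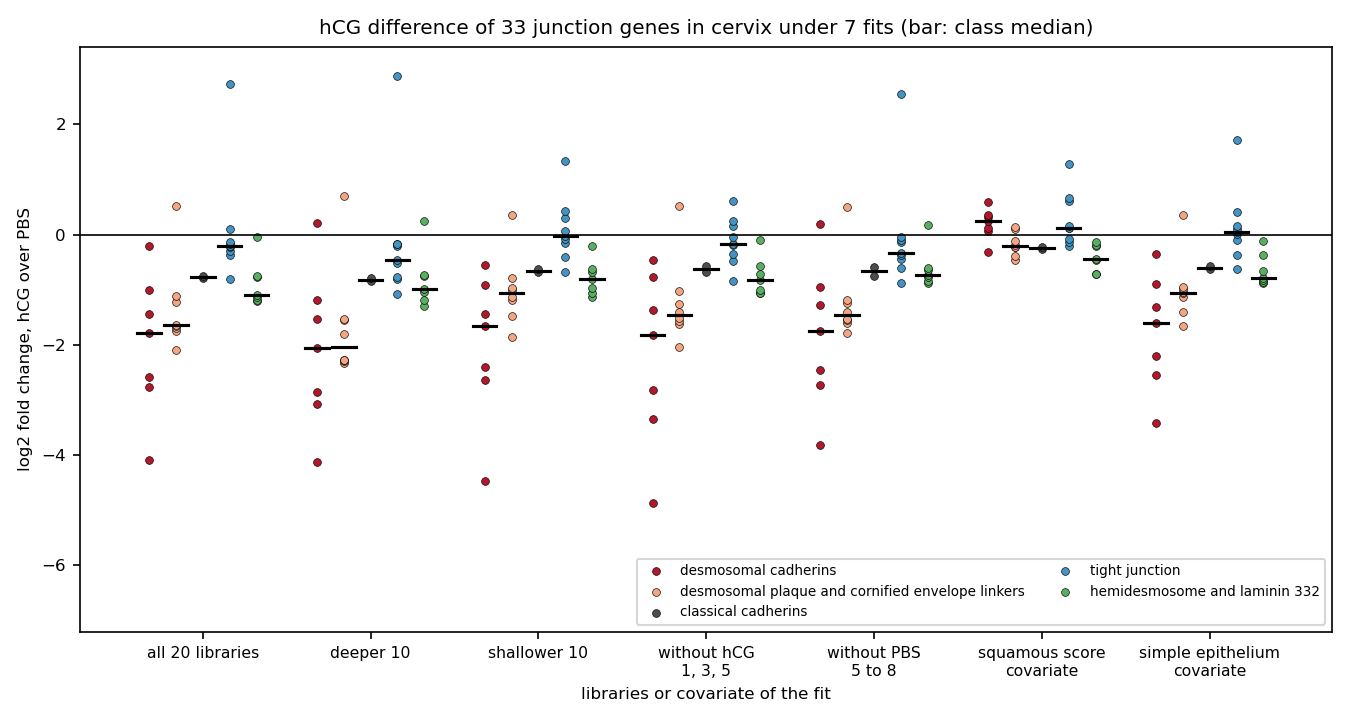
Log2 fold change of hCG over PBS in cervix (vertical axis) of each gene (points, coloured by role, with class medians as bars) under 7 fits on the horizontal axis. The medians of all classes but tight junction lie well below 0 with fewer libraries, and with the squamous score in the model the desmosomal cadherins lie between -0.32 and 0.59.

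In myometrium no junction gene passed edgeR's test between hCG and PBS mice. Of the 33 members 27 had enough counts to be tested and 0 passed, while 2 of 14517 genes did (0.0138%). At an unadjusted p under 0.05 there were 2 members, Itgb4 and Plec, and 2255 genes in all. Itgb4 had 15.7, 38.5 and 101 CPM in hCG myometrium, against 35.1, 70.0 and 100.2 CPM in PBS myometrium (log2 -0.77, SE 0.248, edgeR adjusted p = 0.138), and DESeq2, which called 2.65% of all genes, gave it an adjusted p of 0.0466. Plec had 81.1, 171 and 363 CPM in hCG myometrium, against 163, 269 and 429 CPM in PBS myometrium (log2 -0.60, SE 0.231, edgeR adjusted p = 0.203). The groups overlapped for both. The median over the 27 members was -0.16, against 0.01 for all genes. Without the 6 libraries high in yolk sac markers edgeR called 0 members, 0 had an unadjusted p under 0.05, and the members' median was -0.03. With the yolk sac score in the model it called 0 as well, with 6 at an unadjusted p under 0.05 and a median of -0.25. Over all genes the fit without the 6 libraries called 0 of 14635, with 1939 at an unadjusted p under 0.05. The fit with the score called 4 of 14517, with 2222 at an unadjusted p under 0.05. The 6 members that were too low to test, Dsg1a, Dsg1b, Dsg3, Dsc1, Dsc3 and Pkp1, had medians below 1 CPM in both myometrium groups.

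The hCG response in cervix was also set against that in myometrium in 1 model of all 40 libraries. No member passed this test of the difference, while 55 of 15624 genes did (0.352%), and 14 members and 3120 genes had an unadjusted p under 0.05. The smallest p was that of Cdh3, whose response was lower in cervix by 1.03 log2 units (SE 0.281, edgeR adjusted p = 0.0607), followed by Jup, at -1.56 (SE 0.475, edgeR adjusted p = 0.0824), and Cldn1, at -1.58 (SE 0.485, edgeR adjusted p = 0.0832). DESeq2 called these 3, with adjusted p-values of 0.0206, 0.0337 and 0.0363, where it called 3.62% of all genes. The difference was negative for 25 of 33 members with a median of -0.79, against 0.03 for all genes. Without the 6 myometrium libraries high in yolk sac markers edgeR again called 0 members, with 11 at an unadjusted p under 0.05 and a median of -0.79. Over all genes that fit called 1 of 15916, with 2894 at an unadjusted p under 0.05. Upper-quartile scaling moved the median of all genes to 0.11 and that of the members to -0.70.

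Other genes of the same structures, listed with earlier results known, were read against the 8.91% of all genes that edgeR called in cervix. Of 9 other adherens junction genes, 4 were lower with hCG (Nectin1, Nectin4, Ctnnd1 and Ctnna1) and 1, the N-cadherin gene Cdh2, was higher. Nectin1, an immunoglobulin-type adhesion molecule, had 13.7, 20.9 and 45.5 CPM in hCG cervix, against 26.7, 54.7 and 250 CPM in PBS cervix (log2 -1.65, SE 0.368, edgeR adjusted p = 0.0272). Ctnnd1, the p120 catenin that stabilises cadherins at the membrane, fell by 0.72 (SE 0.177). Cdh2 had 5.32, 8.23 and 13.4 CPM in hCG cervix, against 2.68, 5.30 and 7.36 CPM in PBS cervix (log2 0.74, SE 0.204). Of 16 other tight junction genes 1 was lower, the junctional adhesion molecule F11r (log2 -0.59, SE 0.174). Of 3 other desmosomal genes tested 1 was lower, Kazn (log2 -0.56, SE 0.167), while Dsg1c, another copy of desmoglein 1, was at -2.72 (SE 0.888, edgeR adjusted p = 0.0555). In myometrium edgeR called 0 of the 34 genes tested from these lists and a list of other hemidesmosome and anchoring genes, with 5 at an unadjusted p under 0.05.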

How the data were processed

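The deposited file holds the authors' raw counts for 23079 gene identifiers in 40 total RNA libraries (Illumina TruSeq Stranded Total RNA kit, per the labels' protocols). TopHat2 and build GRCm38 (mm10) were used, per the submitters' processing notes. Counting tool, annotation and strand setting: not given in the sources used here. Symbols and positions are RefSeq's for GRCm38.p6, which matched 23008 identifiers, and the 71 others held 0.197% of counts.

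Counts were filtered with edgeR's filterByExpr, scaled by TMM and tested with edgeR's robust quasi-likelihood F-test, each comparison on its own 20 libraries and the difference of responses on all 40. P-values were adjusted over all genes by Benjamini-Hochberg with a threshold of 0.05. SEs are log2 fold changes over the root of F. CPM were scaled by TMM over 40 libraries, and 3 values for a group are its lowest, median and highest library. CPM per kb divides by summed exon length. On simulated counts for cervix, with changed genes drawn at random, 59% of genes changed by 1 log2 unit and 97% of those changed by 2 were recovered.

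The members, gene lists and alternatives were chosen with earlier results of these data known. Values are given in full for members past the threshold with hCG, the 2 smallest p per class in cervix and the 6 largest and 6 smallest tissue differences in PBS mice. For other lists, genes past the threshold in cervix are named, except that the cervix result of the other hemidesmosome and anchoring genes is not reported here. Software was R 4.3.3, edgeR 4.0.16, limma 3.58.1 and DESeq2 1.42.0.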

Additional observations from a re-analysis of the deposited data

Results flagged for a closer look

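Within each group of 10 libraries, the level of every gene with at least 30 counts was checked for a library far from the rest, by the gap to its neighbour over the group's range and Dixon's 95% critical value. Of 123 groups of values 17 exceeded it, where chance gives about 1 in 20. In hCG cervix library 1, the library with the highest skeletal muscle markers of all and the highest squamous markers of its group (19933 CPM), 5 genes were far above the others: Dsg1a at 782 CPM, Dsg1b at 544 CPM, Dsc1 at 12.2 CPM, Dsc2 at 1947 CPM and Ppl at 438 CPM. In hCG cervix library 5 these were Cldn8 at 110 CPM and Dst at 1225 CPM.

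In PBS cervix, Cldn4 stood at 149 CPM in library 4, Ocln at 80.7 CPM in library 2 and Cldn8 at 10.5 CPM in library 3, and library 7 was high for Col17a1 at 868 CPM and Itgb4 at 264 CPM. In hCG myometrium, library 4 was high for Evpl at 13.1 CPM and Itgb4 at 101 CPM, library 10, which held 29928 CPM of yolk sac markers, was high for Ocln at 94.6 CPM, and library 6 was low for Dst at 552 CPM. In PBS myometrium, Dsg2 stood at 117 CPM in library 8, which held 11543 CPM of yolk sac markers. The part of these other cells in the values was not tested.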

How the results depend on the processing

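Against 15 junction genes called in hCG against PBS cervix, 0 were called in the deeper libraries, the shallower libraries, without hCG cervix libraries 1, 3 and 5, without PBS cervix libraries 5 to 8, and with the squamous or the simple epithelium score as a covariate, and 8 with depth class as a term. Over all genes the fit with depth class called 508 of 14932, and both score fits called 0. Leaving out 1 library in turn gave 0 to 19 members, where 1 to 2065 of all genes were called. With the squamous score 2 called genes turned positive, Dsc1 at 0.0604 and Dsc2 at 0.12, and the cause was not tested. Of 525 alternative values of the called genes in cervix 303 kept their call, 220 kept only the direction and 2 reversed. In myometrium DESeq2 called 1 gene. For the difference of responses DESeq2 called 3, and leaving out 1 library gave 0 to 3, where 0 to 678 of all genes were called. Leaving out PBS cervix libraries 5 to 8, an alternative chosen after seeing the data, gave 1 member. Over all genes that fit called 1138 of 16170, against 55 of 15624 with all libraries. Between tissues, 443 of 449 alternative values of called genes in hCG mice and 641 of 660 in PBS mice kept their call.

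Whether same-numbered cervix and myometrium libraries of 1 treatment share an animal is not stated, and 9 pairs per treatment are too few to decide it. hCG and PBS mice are different animals, so a number shared between treatments is not a shared animal. Deviations of same-numbered libraries correlated above 0.1 in 4 of 9 pairs in the cervix comparison and 3 of 8 in myometrium. Between tissues this held for 3 of 9 pairs in hCG mice and 5 of 9 in PBS mice. In the same order the median correlations were 0.09, -0.04, 0.06 and 0.14, and the highest 0.30, 0.19, 0.32 and 0.57. In each comparison 1 to 3 pairs correlated best with their own number. Without the 6 myometrium libraries high in yolk sac markers, also chosen after seeing the data, no count of called members moved by over 1.5 times. The counts for myometrium and for the difference of responses were 0 already and could not fall. Over all genes the calls went from 55 to 1 for the difference of responses and from 2 to 0 in myometrium. With the number as a replicate block 7 members were called in cervix, 0 in myometrium and 0 for the difference of responses. Between tissues 14 were called in hCG mice (11 higher, 3 lower) and 23 in PBS mice. Over all genes those fits called 1172 of 15192 in cervix, 2 of 14502 in myometrium and 0 of 15714 for the difference. Between tissues they called 5833 of 15058 in hCG mice and 8147 of 14536 in PBS mice. In simulated cervix counts, genes with a difference of 1 log2 unit were recovered in 59% of cases. Those genes were drawn at random from all genes, so the share need not hold for the junction genes. Neither depth nor the number of libraries was varied in the simulation.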
